A study of Mus musculus with 16 samples.

Results

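A set of 10 genes of nucleic acid sensing and RNA editing was followed in RNA-seq of sorted mouse foetal liver erythroblasts, defined by their names, out of 55416 genes in the count table. They are the cytosolic RNA sensors *Rigi*, *Ifih1* and *Dhx58* and their adaptor *Mavs*, the DNA sensor *Cgas* and its adaptor *Sting1*, the Z-form nucleic acid sensor *Zbp1*, the RNA-editing enzyme *Adar*, the RNA-activated kinase *Eif2ak2*, and the DNA exonuclease *Trex1*. All 10 have a row in the table, and 9 of them had counts. The libraries came from embryos at E13.5 on the C57BL/6J background. They comprised 4 wild-type (WT, *Nprl3*+/+) embryos, of which embryos 1 and 5 were female and embryos 8 and 0 male, 2 male heterozygotes (Het, *Nprl3*+/-, embryos 3 and 4), and 2 knockouts (KO, *Nprl3*-/-), female embryo 2 and male embryo 9. The KO allele is a constitutive deletion of the *Nprl3* promoter region that leaves the α-globin enhancers within the gene in place, so every cell of the embryo carries it. From each embryo, stage 1 cells (S1, the colony-forming erythroid stage) and stage 3 cells (S3, basophilic erythroblasts) were sorted by Ter119 and CD71, giving 16 libraries. The comparison of KO with WT asks what loss of NPRL3, a part of the GATOR1 complex that restrains mTORC1, does to these genes at each stage.

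Cells detect misplaced nucleic acid with dedicated sensors. RIG-I (*Rigi*) and MDA5 (*Ifih1*) bind double-stranded RNA in the cytosol and signal through MAVS on mitochondria, while LGP2 (*Dhx58*) binds such RNA without signalling by itself and modulates the other two. cGAS (*Cgas*) binds DNA and makes a cyclic dinucleotide that activates STING (*Sting1*). Both routes lead to type I interferon, and several of the sensors are themselves interferon-stimulated genes, including *Rigi*, *Ifih1*, *Dhx58*, *Zbp1*, *Eif2ak2* and a long form of *Adar*. ADAR1 (*Adar*) edits adenosine to inosine in double-stranded RNA and so keeps the cell's own RNA from being sensed by MDA5, PKR (*Eif2ak2*) phosphorylates eIF2α and slows translation, and ZBP1 can start necroptosis. In foetal liver, loss of ADAR1 editing is known to impair blood formation, with MDA5 as the sensor involved. In mm39, *Ifih1* lies on chromosome 2 (62426142 to 62476599, minus strand), *Rigi* on chromosome 4 (40203773 to 40239828, minus strand), *Dhx58* on chromosome 11 (100585710 to 100595097, minus strand), *Adar* on chromosome 3 (89622329 to 89660753, plus strand) and *Eif2ak2* on chromosome 17 (79159993 to 79190002, minus strand). *Mavs* lies on chromosome 2 (131075983 to 131089945, plus strand) and *Cgas* on chromosome 9 (78337808 to 78350519, minus strand).

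Promoter sequence is shown for *Rigi* and *Ifih1*, as the RNA sensors that head the pathway. RefSeq promoter windows of build GRCm38.p6 matched 7 of the 10 genes, in 10 windows that each hold 250 bases before a start site. *Dhx58*, *Zbp1* and *Sting1* were not among them. The 100 bases before the start are printed on the gene's own strand, with capitals for the interferon regulatory factor core AANNGAAA, searched on both strands.
Rigi, chr4:40239826-40239925, minus strand: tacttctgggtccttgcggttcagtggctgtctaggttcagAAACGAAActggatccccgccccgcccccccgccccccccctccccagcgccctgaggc
Ifih1, chr2:62646256-62646355, minus strand: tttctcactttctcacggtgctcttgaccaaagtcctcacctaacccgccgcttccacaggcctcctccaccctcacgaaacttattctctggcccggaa
The capitals in *Rigi* lie 59 to 52 bases before the start. No other gene of the 7 had this core in its 250 bases, and 21.3% of all 32851 windows have it in the same part. The full interferon-stimulated response element, searched as GAAANNGAAA, which contains the core, was in none of the 10 windows and in 2.98% of all windows. At that share a match in 10 windows is not likely, so nothing is read from its absence. Other spellings of the element, and sequence outside these bases, were not searched. The STAT element TTCNNNGAA was in the *Eif2ak2* window, from 178 to 170 bases before the start, and in 7.02% of all windows.

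The libraries held 20666044 to 37609502 counted read pairs. *Nprl3* at S1 had normalized counts of 691 to 996 in WT, 386 to 396 in Het and 9.74 to 20.6 in KO. At S3 it stood at 4446 to 6215 in WT, 3593 to 4463 in Het, which overlapped WT, and 3256 to 3377 in KO. The deletion leaves the gene body, and reads from it are counted. The paper describes spliced, polyadenylated transcripts that start at the enhancers within *Nprl3* and do not code for protein. Its promoter-specific PCR detected no *Nprl3* mRNA in KO cells. The counts here do not separate these transcripts from the mRNA. The source and tissue labels name an embryonic stem cell line, but the summed stem cell markers did not pass 3.12 normalized counts in any library, while 10 erythroid markers summed to 60126 to 294856 at S1 and 4514547 to 5884750 at S3. The S1 libraries of WT embryos 8 and 0 stood apart. Their 11 summed neutrophil markers came to 3520 and 5847 normalized counts, against 33036 to 48129 in the other 6 S1 libraries, and globin transcripts took 1.00% and 1.07% of their counts, against 0.0738% to 0.306%. These are also the only WT males, and results at S1 are therefore given with and without them.

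Of the 10 genes, 6 passed the filter at S3 (a mean above 10 normalized counts in the comparison), and the RNA sensors, *Adar* and *Eif2ak2* were higher in both KO libraries than in all 4 WT libraries, while *Mavs* was not. With edgeR's quasi-likelihood test and Benjamini-Hochberg adjustment over 11804 genes, *Ifih1* and *Adar* rose past the threshold of 0.05 and none fell. The 6 include 5 with an unadjusted p under 0.05, as 1006 of all genes tested had. Among all genes tested, 0.457% were called higher, and 9.12% had both KO libraries above all WT libraries, against 5 of these 6. The median log2 fold change was 1.57 over the 6 genes and 0.0072 over all genes.

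**Figure D1:**
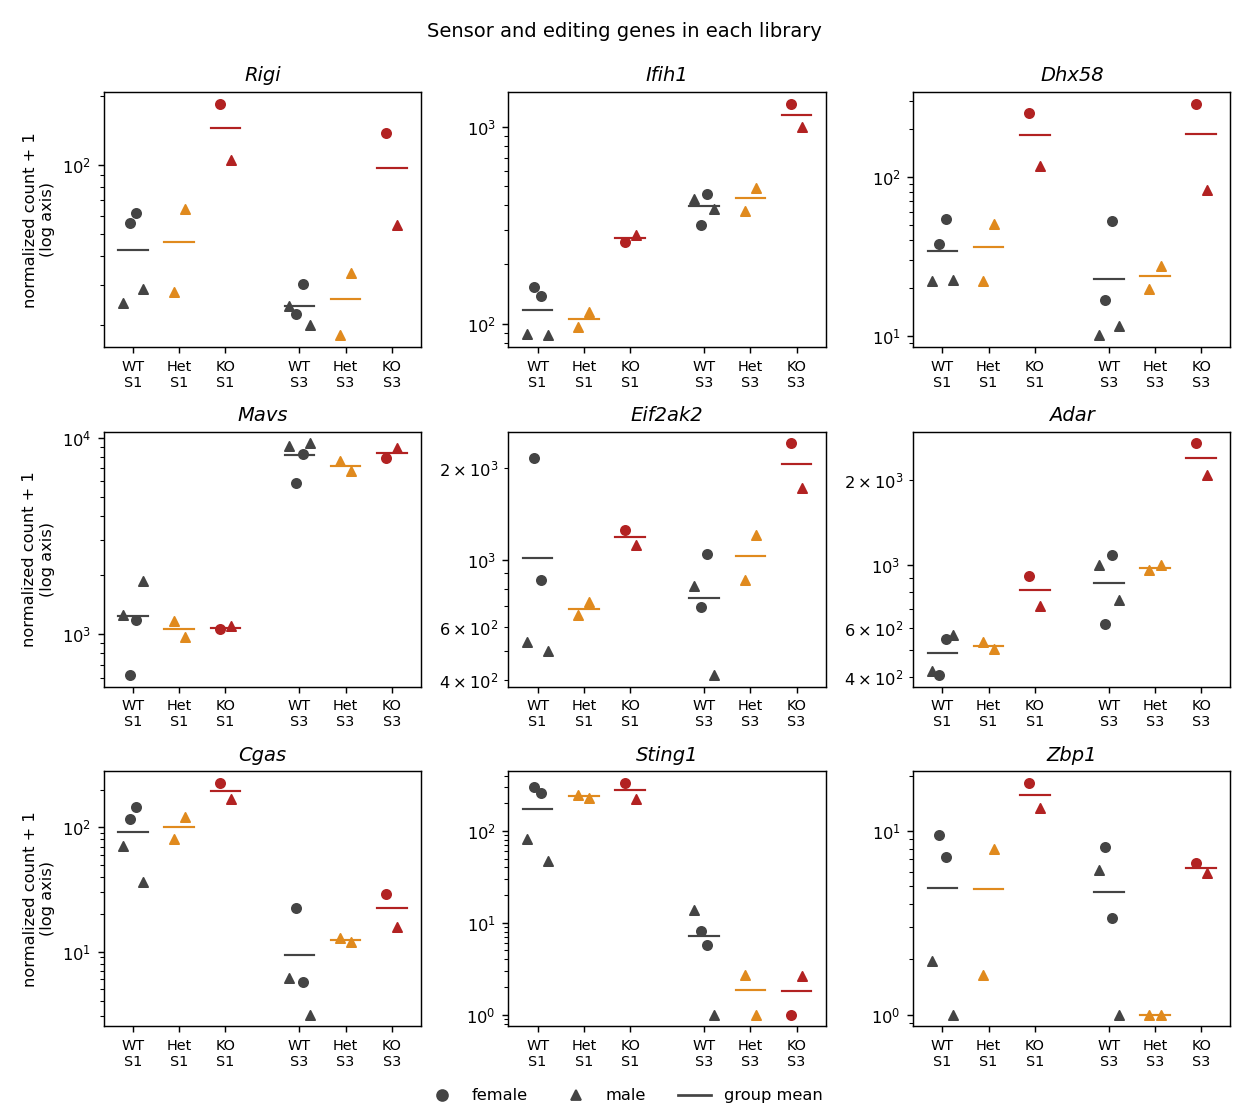
Normalized counts (plus 1, log axis) of the 9 genes with counts in each of the 16 libraries, by genotype and stage, with circles for female and triangles for male embryos and a line at the group mean. The KO libraries lie above all WT libraries at S3 in *Rigi*, *Ifih1*, *Dhx58*, *Eif2ak2* and *Adar*, while *Sting1* and *Cgas* drop from S1 to S3 and *Mavs* climbs.

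*Ifih1* was the most abundant of the 3 RNA sensors at S3. Its normalized counts were 317, 454, 381 and 432 in WT embryos 1, 5, 8 and 0, and 1315 and 1001 in KO embryos 2 and 9. The KO values lay far above the WT range, with a log2 fold change of 1.60 (SE 0.19, 95% interval 1.18 to 2.03, edgeR adjusted p = 0.0153). *Rigi* was read at much lower counts, 21.4, 29.3, 18.9 and 23.2 in WT and 137 and 53.9 in KO. The groups did not overlap, but the KO embryos differed from each other by more than WT embryos did. Its log2 fold change of 2.07 (SE 0.42) did not pass the correction (adjusted p = 0.0922, edgeR).

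*Dhx58* had normalized counts of 15.7, 51.5, 10.5 and 9.03 in WT, and 286 and 81.6 in KO. WT embryo 5 stood above the other WT embryos and still below both KO embryos. The log2 fold change was 3.07 (SE 0.69, interval 1.50 to 4.64, edgeR adjusted p = 0.133), which did not pass. *Mavs*, the adaptor that the sensors signal through, had 5850, 8251, 9346 and 9030 normalized counts in WT and 7862 and 8813 in KO. The KO values fell within the WT range, and the log2 fold change was 0.09 with an interval from -0.38 to 0.56 (edgeR adjusted p = 0.965).

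*Adar* had 619, 1083, 749 and 1002 normalized counts in WT and 2704 and 2080 in KO at S3. Both KO libraries were above the highest WT library, and the log2 fold change was 1.53 (SE 0.23, interval 1.01 to 2.04, edgeR adjusted p = 0.0348). The counts do not tell its long, interferon-inducible form from the constitutive form, and 16.8% of its exonic bases are shared with *Chrnb2* on the other strand, where pairs were not counted. *Eif2ak2* had 696, 1041, 415 and 819 normalized counts in WT and 2418 and 1721 in KO. These groups did not overlap either, with a log2 fold change of 1.54 (SE 0.29, edgeR adjusted p = 0.0746).

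Both calls were lost when single libraries were left out. Without WT embryo 8, WT embryo 0 or KO embryo 2, the adjusted p of *Ifih1* was 0.068, 0.0689 and 0.0664 (edgeR), with log2 fold changes of 1.40 to 1.64. That of *Adar* was 0.108, 0.0949 and 0.153, and 0.0518 without KO embryo 9, with log2 fold changes of 1.34 to 1.69. The log2 fold change of *Dhx58* was 1.93 without KO embryo 2 and 3.96 without WT embryo 5, and did not pass in either case (edgeR adjusted p = 0.750 and 0.0553). That of *Rigi* was 1.27 without KO embryo 2 (edgeR adjusted p = 0.680) and 2.59 without KO embryo 9, where it passed (edgeR adjusted p = 0.0370). Both of them, and also *Rigi*, *Dhx58* and *Eif2ak2*, passed with DESeq2 and when sex was a covariate in edgeR, where the adjusted p was 0.0103 for *Rigi*, 0.00136 for *Dhx58* and 0.00179 for *Eif2ak2*.

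Within each sex, with 1 KO and 2 WT embryos and so no test, the differences of KO from the WT mean at S3 are given as values. On the log2 scale of normalized counts plus 1, *Ifih1* differed by 1.77 in females and 1.30 in males, and *Adar* by 1.67 and 1.25. *Rigi* differed by 2.39 and 1.31, *Dhx58* by 3.05 and 2.94, and *Eif2ak2* by 1.48 in both. KO embryo 2 was above KO embryo 9 in all 5 genes, and sex and embryo cannot be told apart in this pair.

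Several marker lists differed between the same libraries. At S3 the 15 summed macrophage markers came to 687 and 1046 normalized counts in KO and 1389 to 2884 in WT, with 3 called lower, 0 called higher and *Cd163* at 0 in both KO libraries. The 14 hepatoblast markers summed to 3156 and 7839 in KO and 6954 to 30105 in WT, with all 14 log2 fold changes below 0, a median of -1.41, 9 at an unadjusted p under 0.05 and 0 called. The 11 neutrophil markers summed to 45.2 and 429 in KO and 33.9 to 143 in WT, with *Cebpe* and *Ly6g* at 0 in both groups. The 10 erythroid markers summed to 4577103 and 4514547 in KO and 4968148 to 5850332 in WT. The log2 fold changes of all 10 lay below 0, with a median of -0.23, and 0 were called. The median was 1.33 over the 2 erythroid progenitor markers tested and 0.67 over the 8 megakaryocyte markers tested, with 0 called in either list. The part of these cell types and of maturation in the sensor values was not tested. In bulk libraries, fewer cells of a type and less RNA per cell cannot be told apart.

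The DNA-sensing pair and *Zbp1* were near the limit of detection at S3 and were not tested there. *Cgas* had 15, 4, 1 and 4 raw read pairs in WT embryos 1, 5, 8 and 0, and 15 and 9 in KO. The groups overlapped. *Sting1* had 5, 4, 0 and 10 pairs in WT and 0 and 1 in KO, and *Zbp1* 5, 2, 0 and 4 in WT and 3 in each KO library. A difference in *Sting1* or *Zbp1* was not detectable at this depth. *Trex1* had 0 counts in all 16 libraries. All 1147 of its exonic bases lie within exons of *Atrip* on the same strand (chromosome 9, 108887001 to 108888802, mm39), and pairs that overlapped both genes were not counted, so the table gives no level for it.

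**Figure D2:**
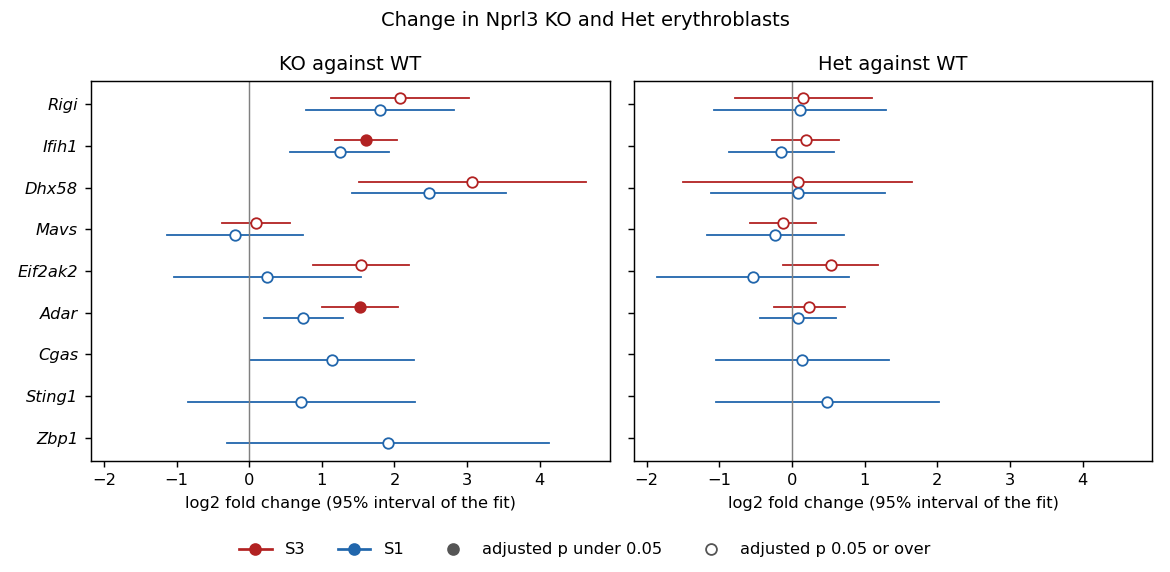
Log2 fold changes of KO (left) and Het (right) against WT at S3 (red) and S1 (blue) from edgeR, with 95% intervals of the fit; filled points passed an adjusted p of 0.05. *Ifih1* (1.60) and *Adar* (1.53) at S3 are the filled points, and the Het intervals all include 0.

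At S1, 9 genes passed the filter and none passed the correction over 14039 genes in edgeR, where 0% of all genes were called higher. Of the 9, 5 had an unadjusted p under 0.05, as did 355 of all genes tested, and DESeq2 called 2, *Ifih1* and *Dhx58*, among 45 genes in all. In 6 of them both KO libraries were above all WT libraries, against 6.99% of all genes. One of the 6, *Zbp1*, passed the filter only through its KO libraries.

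The RNA sensors at S1 were read at low counts. *Dhx58* had 37.0, 52.9, 21.3 and 20.97 normalized counts in WT embryos 1, 5, 8 and 0 and 250 and 115 in KO embryos 2 and 9, with a log2 fold change of 2.47 (SE 0.46, edgeR adjusted p = 0.642) that was 1.82 without KO embryo 2. *Rigi* had 54.7, 60.6, 27.6 and 23.8 in WT and 184 and 104 in KO, with a log2 fold change of 1.80 (SE 0.44, edgeR adjusted p = 1.00). In both, WT embryos 8 and 0 were the low pair, and the KO values exceeded the other WT pair too. *Ifih1* had 152, 138, 85.9 and 87.7 in WT and 260 and 282 in KO, with a log2 fold change of 1.24 (SE 0.29, edgeR adjusted p = 1.00).

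Without WT embryos 8 and 0, the log2 fold changes of KO against WT at S1 were 2.03 for *Dhx58*, 1.33 for *Rigi*, 0.93 for *Ifih1* and 0.79 for *Adar*, and again none passed (edgeR adjusted p from 0.912 to 0.991). *Adar* had 407, 546, 566 and 421 normalized counts in WT and 911 and 716 in KO, with a log2 fold change of 0.75 (SE 0.24, edgeR adjusted p = 1.00) over all embryos. Its KO libraries stood above every WT library. *Mavs* had 620, 1185, 1872 and 1257 in WT and 1062 and 1099 in KO, within the WT range. *Eif2ak2* overlapped as well, with 2164, 856, 496 and 533 in WT and 1253 and 1112 in KO. Its log2 fold change was 0.25, which was 0.91 without WT embryo 1 and turned to -0.33 without WT embryos 8 and 0.

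*Sting1* and *Cgas* were lowest at S1 in the WT libraries that stood apart. *Sting1* had 299, 260, 45.8 and 80.1 normalized counts in WT embryos 1, 5, 8 and 0, 243 and 229 in Het, and 332 and 222 in KO. WT embryos 8 and 0 are the low ones. The other WT embryos lie above both Het libraries and between the KO libraries. The log2 fold change of KO against WT was 0.72 (SE 0.67, edgeR adjusted p = 1.00), and 0.0007 without WT embryos 8 and 0. *Cgas* had 115, 144, 35.1 and 69.6 in WT, 79.8 and 119 in Het, and 227 and 167 in KO. Its log2 fold change was 1.14 (SE 0.49, edgeR adjusted p = 1.00) and 0.62 without the same embryos, with KO above both remaining WT libraries. Besides their few neutrophil transcripts, WT embryos 8 and 0 had low lymphoid and dendritic cell markers at S1, with sums of 237 and 466 normalized counts against 1392 to 2169 in the other 6 libraries. The study's foetal liver erythroid antibody panel holds CD11b and Gr1, which mark myeloid cells, and B220, CD90.2 and NK1.1, which mark lymphoid cells, beside Ter119 and CD71, while the sort is described by Ter119 and CD71.

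**Figure D3:**
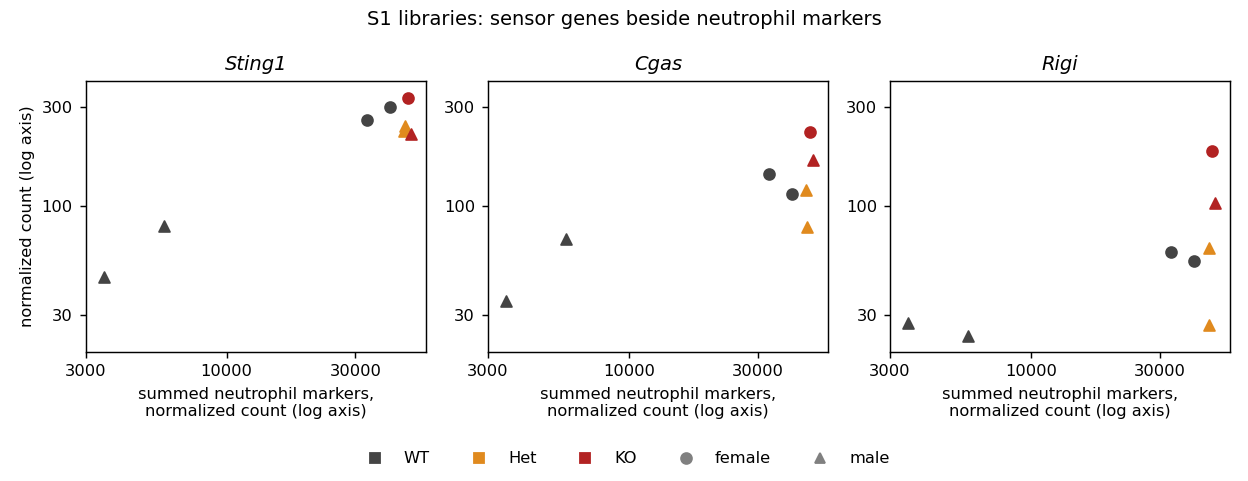
Normalized counts of *Sting1*, *Cgas* and *Rigi* (log axis) against the sum of 11 neutrophil markers (log axis) in the 8 S1 libraries, coloured by genotype. WT embryos 8 and 0 lie at the left at 3520 and 5847 neutrophil counts and are low for *Sting1*. The Het libraries, at 45511 and 45757 neutrophil counts, had 26.8 and 63.1 for *Rigi*, and the KO libraries, at 46813 and 48129, had 184 and 104.

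The neutrophil marker sum of the KO libraries at S1 was 46813 and 48129 normalized counts and that of the Het libraries 45511 and 45757. The same groups differed in other markers at S1. Macrophage markers summed to 2182 and 2193 in KO, 1134 and 1667 in Het and 963 to 1765 in WT, although only 4 of the 13 macrophage markers tested had a log2 fold change of KO against WT above 0, with a median of -0.33. Megakaryocyte markers summed to 1095 and 2726 in KO and 791 and 723 in Het. Of the erythroid markers, 1 of 10 lay above 0 in KO against WT at S1 (median -1.09), and of the hepatoblast markers 1 of 14 (median -0.90), with 0 called in these lists. These medians include WT embryos 8 and 0. Erythroid markers summed to 263426 and 294856 in those embryos, 84627 and 112919 in WT embryos 1 and 5, and 60126 and 108437 in KO. Hepatoblast markers summed to 10732 and 11657, 2178 and 2689, and 1244 and 5858 in the same order. Both Het embryos are male, and the KO pair is 1 of each sex. *Rigi* was 26.8 and 63.1 in Het against 184 and 104 in KO, *Dhx58* 21.1 and 49.1 against 250 and 115, and *Ifih1* 94.5 and 114 against 260 and 282. *Zbp1* had 11, 8, 0 and 1 raw pairs in WT, 1 and 8 in Het, and 23 and 19 in KO. Its log2 fold change of KO against WT was 1.92 (SE 0.95), and 1.01 without WT embryos 8 and 0. The part of these cell types and of maturation in the values at S1 was not tested.

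Loss of 1 *Nprl3* allele was compared in the same way. In Het against WT, 0 of the 6 genes tested at S3 and 0 of the 8 tested at S1 passed in edgeR, and DESeq2 called 0. Of these genes, 0 had an unadjusted p under 0.05 in edgeR, where 373 of all 11746 genes at S3 and 589 of all 13818 at S1 had one. Among all genes, 0% were called higher at S3 and 0% at S1. At S3 *Ifih1* had 375 and 492 normalized counts in Het against 317 to 454 in WT, and *Adar* 957 and 1003 against 619 to 1083. The log2 fold changes were 0.19 (interval -0.27 to 0.65) and 0.24 (interval -0.25 to 0.73). Both intervals end below the KO estimates of 1.60 and 1.53, which come from a comparison with the same WT libraries. With sex as a covariate, which sets the Het embryos, both male, against WT embryos 8 and 0, *Sting1* was called higher at S1 (log2 fold change 1.89, edgeR adjusted p = 0.015), in a fit that called 397 of all 13818 genes (815 by DESeq2 with sex) where the fit without sex called 0. Without those embryos it was -0.23. At S3, sex as a covariate called 2124 of all 11746 genes in edgeR and 2148 in DESeq2 and 0 of the 6, with *Dhx58* at 1.25 (edgeR adjusted p = 0.237) in place of 0.08.

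Whether the KO effect differed between stages was tested as an interaction over the 12 WT and KO libraries. None of 8 genes passed in edgeR (0 with an unadjusted p under 0.05), and 0 passed by DESeq2. Of all genes, 0.00742% were called higher, which is *Nprl3* alone, whose KO counts come from the remaining gene body. *Adar* had the smallest unadjusted p, 0.0537, with a KO effect 0.77 larger at S3 on the log2 scale (SE 0.36, edgeR adjusted p = 1.00). For *Eif2ak2* the difference was 1.27 (interval -0.26 to 2.81), for *Dhx58* 0.60 (interval -1.48 to 2.68), for *Ifih1* 0.35 (interval -0.41 to 1.12) and for *Rigi* 0.27 (interval -1.16 to 1.69). For *Sting1* it was fitted at -3.44 (interval -7.48 to 0.61), on 0 and 1 raw pairs in KO at S3. Over the 12 alternatives, the difference ran from 0.61 to 0.92 for *Adar* and from 0.54 to 1.62 for *Eif2ak2*. It ran from 0.13 to 1.18 for *Dhx58*, from 0.07 to 0.71 for *Ifih1* and from -0.06 to 0.61 for *Rigi*.

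In WT alone, S3 was compared with S1. Of 8 genes tested, *Mavs*, *Ifih1* and *Adar* were called higher at S3 and *Sting1* and *Cgas* lower, where 30.6% of all genes were called higher and 35% lower. The 3 of 8 called higher are near that share, and the 2 called lower passed the filter only through their S1 libraries, so that no count is read from them. *Mavs* went from 620 to 1872 normalized counts at S1 to 5850 to 9346 at S3, a log2 fold change of 2.78 (SE 0.32, edgeR adjusted p = 3.20e-05). *Ifih1* went from 85.9 to 152 at S1 to 317 to 454 at S3 (log2 fold change 1.84, SE 0.24, edgeR adjusted p = 8.07e-05). The stages did not overlap for either gene.

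*Sting1* had 73 to 388 raw pairs at S1 and 0 to 10 at S3 (fitted log2 change -4.61, SE 0.79, edgeR adjusted p = 4.54e-04). *Cgas* had 56 to 185 raw pairs at S1 and 1 to 15 at S3 (fitted log2 change -3.34, SE 0.64, edgeR adjusted p = 0.00101). Their WT means at S3, 6.18 and 8.34 normalized counts, are below the filter's minimum of 10, so the sizes of these changes are uncertain. Neutrophil markers fell from 3520 to 40109 normalized counts to 33.9 to 143 between the same libraries, and lymphoid and dendritic markers from 237 to 2169 to 2.11 to 36.1. Their part in the values of *Sting1* and *Cgas* was not tested. Without WT embryos 8 and 0 the log2 changes were -5.50 and -3.30. That of *Sting1* was -5.45 without WT embryo 0 alone, and that of *Cgas* -4.19 without WT embryo 1.

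The stage comparison depends on the scaling. Globin transcripts took 10% to 11.8% of the counts of S3 libraries and at most 1.07% at S1. Scaled to library totals without TMM, the median log2 change of all genes was -1.14, against -0.08 with TMM, and the genes called higher and lower were 1806 and 8703 in place of 4142 and 4728. *Mavs* (1.74) and *Ifih1* (0.83) were still called higher and *Sting1* (-5.57) and *Cgas* (-4.32) lower. *Adar*, at 0.90 with TMM (407 to 566 normalized counts at S1 and 619 to 1083 at S3, adjusted p = 0.004), turned to -0.13 (edgeR adjusted p = 0.626), which is still above the all-gene median. *Rigi* (-0.77), *Dhx58* (-0.51) and *Eif2ak2* (-0.38) were not called with TMM and were called lower with library totals.

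**Figure D4:**
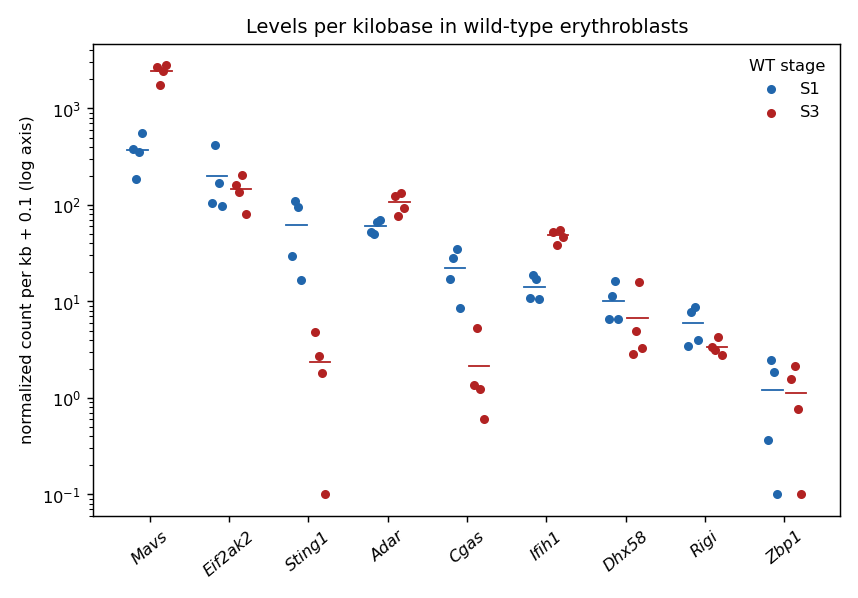
Normalized counts per kilobase of exon (plus 0.1, log axis) of 9 genes in the 4 WT libraries at S1 (blue) and S3 (red), with lines at the means. *Mavs* is highest at both stages, with means of 369 and 2427, and *Sting1* and *Cgas* drop to about 2 at S3.

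Per kilobase of exon, levels can be set side by side between genes, but only roughly. The length takes in all exons annotated for a gene, and the RNA was amplified. Pairs in the 16.8% of *Adar* exonic bases shared with *Chrnb2* were not counted, which lowers its level. In WT at S1, the mean normalized counts per kilobase were 369 ± 153 (SD, n = 4) for *Mavs*, 198 ± 153 for *Eif2ak2*, 62.4 ± 46.2 for *Sting1*, 59.8 ± 10.2 for *Adar*, 22.0 ± 11.7 for *Cgas*, 14.2 ± 4.15 for *Ifih1*, 10.1 ± 4.64 for *Dhx58*, 5.91 ± 2.65 for *Rigi* and 1.11 ± 1.16 for *Zbp1*. The mean ± SD ranges of neighbours in this order overlapped, except between *Adar* and *Cgas* and between *Rigi* and *Zbp1*. At S3 *Mavs* stood at 2427 ± 473, *Eif2ak2* at 145 ± 51.1, *Adar* at 106 ± 26.7, *Ifih1* at 48.5 ± 7.48 and *Dhx58* at 6.63 ± 6.13, with *Rigi* at 3.29 ± 0.624, *Sting1* at 2.25 ± 1.96, *Cgas* at 2.02 ± 2.14 and *Zbp1* at 1.04 ± 0.888. Here the ranges of neighbours overlapped between *Eif2ak2* and *Adar* and at each step from *Dhx58* to *Zbp1*, and not elsewhere. In KO at S3 the means were 405 ± 96.5 (n = 2) for *Eif2ak2*, 295 ± 54.4 for *Adar*, 142 ± 27.3 for *Ifih1*, 56.2 ± 44.2 for *Dhx58* and 13.6 ± 8.38 for *Rigi*. The adaptor *Mavs*, at 2493 ± 201, remained far above the sensors upstream of it.

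Most other genes of these pathways did not pass the test in KO. At S3, *Trim25*, the ubiquitin ligase that aids RIG-I signalling, was the 1 of 6 tested RNA-sensing receptors and regulators called higher (log2 fold change 1.02, SE 0.15, edgeR adjusted p = 0.0351). *Irf7*, an interferon-inducible transcription factor of interferon genes, was the 1 of 13 tested genes downstream of MAVS and STING called higher (2.81, SE 0.45, edgeR adjusted p = 0.0419). None was called lower in either list. Of the 11 tested partners of DNA sensing, 5 genes of the death pathway downstream of ZBP1, 10 genes of nucleic acid clearance, and 8 other deaminases and double-stranded RNA binding proteins, 0 passed in either direction, with 0, 0, 2 and 1 at an unadjusted p under 0.05, where 1006 of all 11804 genes had one. At S1, 0 genes of any of these lists passed in edgeR, where 0 of all 14039 genes were called higher and 1 lower. *Trim25* had a log2 fold change of 0.42 (SE 0.19) there and *Irf7* of 1.86 (SE 0.44). An unadjusted p under 0.05 was found for 2 of 15 genes downstream of MAVS and STING and 2 of 9 other deaminases and binding proteins. Of all genes, 355 had one. These lists were read from edgeR only. The median log2 fold changes at S3 ran from -0.05 for the DNA-sensing partners to 0.33 for the ZBP1 death pathway, against 1.57 for the 6 sensor and editing genes tested.

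The interferon genes were at or near 0. Of 12 type I, II and III interferon genes, 11 had 0 counts in all 16 libraries, and the other, *Ifnk*, chosen for mention after its counts were seen, had 0 to 5 raw pairs per library. A count of 0 allows up to 3 pairs in a library, a limit that covers counting error only since the RNA was amplified, and speaks only for polyadenylated RNA of the sorted cells.

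Over the 16 libraries, after the mean of each stage was subtracted, log2 levels of *Rigi*, *Ifih1* and *Dhx58* correlated with each other at 0.91 to 0.95 (Pearson's r, a description over libraries that share embryos and genotype). *Adar* correlated with them at 0.81 to 0.86 and *Eif2ak2* at 0.75 to 0.80, while *Mavs* lay between -0.21 and -0.13. The genes most like each were *Tgtp2* (0.94) and *Irf7* (0.94) for *Rigi*, *Parp9* (0.95) and *Dtx3l* (0.95) for *Ifih1*, and *Usp18* (0.96) and *Parp9* (0.96) for *Dhx58*. For *Adar* they were *Tdrd7* (0.97) and *Parp10* (0.97), for *Eif2ak2* *Samd9l* (0.89) and *Samhd1* (0.88), and for *Mavs* *Cdk16* (0.98) and *Map3k11* (0.97).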

How the data were processed

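RNA-seq of 16 libraries (8 embryos at S1 and S3) was analysed. Embryo numbers, sex, genotype and stage came from the sample titles. Per the labels, the RNA was amplified before poly(A) library preparation. The authors mapped reads to mm39 with STAR 2.7.9 and deposited raw counts per gene from featureCounts 1.6.4. Per the file header, fragments were assigned without strand, and ambiguous ones (several map positions, or exons of more than 1 gene) were discarded, so genes that overlap others are undercounted. The table holds 55416 genes, 54749 with a symbol in GENCODE, and 4 library columns matching no sample, which were not used.

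After TMM scaling, tests were run in R 4.3.3 with the quasi-likelihood functions of edgeR 4.0.16 (glmQLFit and glmQLFTest, default settings). Genes with a mean above 10 normalized counts in a comparison were tested, with Benjamini-Hochberg adjustment and a threshold of 0.05. Normalized counts per library used TMM over all 16 libraries. Intervals (95%) use the t distribution with the fit's degrees of freedom and cover these libraries only. Alternatives were DESeq2 1.42.0, sex as a covariate, all libraries of the stage, no filter, TMM without globin genes, the embryo as a block and each embryo left out. Library totals without TMM, and leaving out WT embryos 0 and 8, were chosen after seeing the data. The test was also run on simulated counts with the same spread for every gene, which does not speak for the spread between these embryos. The genes and lists were chosen with earlier results of these data known. Genes named from other lists are those with an adjusted p under 0.05 in KO against WT (up to 3 a list), and the 2 most correlated genes of each gene tested at both stages.

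Same-numbered libraries come from the same embryo. Over 13402 genes, the deviations of such a pair from its group means correlated at 0.07, 0.21, 0.31 and 0.30 for WT embryos 0, 1, 5 and 8, 0.04 for Het and 0.38 for KO. No pair of libraries of a group agreed within sampling noise (lowest chi-square per gene 8.94).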

Additional observations from a re-analysis of the deposited data

Results flagged for a closer look

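In 2 of 18 sets of 4 WT libraries (9 genes at 2 stages), the highest library stood off by Dixon's test at the 95% level, which chance gives in about 1 in 20 sets. *Dhx58* at S3 had 51.5 normalized counts in WT embryo 5 and 9.03 to 15.7 in the others, a gap of 0.843 of the range. *Cgas* at S3 had 21.4 in WT embryo 1 and 2.11 to 5.16 in the others, a gap of 0.842 of the range, with 15 raw pairs against 1 to 4.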

How the results depend on the processing

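Of 565 log2 fold changes of single genes recomputed under the alternatives, 494 kept their direction and side of the threshold, 26 newly passed, 7 no longer passed and 38 turned sign. In KO against WT at S3, the 5 genes other than *Mavs* kept their sign in every alternative, and the number called was 5 with DESeq2, without the filter, with sex as a covariate in edgeR and with sex in DESeq2, 3 with all libraries of the stage, and 0 to 2 with 1 embryo left out. The genes called over the whole table were 66 in edgeR, 259 with DESeq2, 356 without the filter, 547 with sex, 730 with sex in DESeq2 and 115 with all libraries of the stage, and 11 to 42 with 1 embryo left out. At S1 the number called was 2 with DESeq2, 1 with sex in edgeR and 3 with sex in DESeq2, and 0 with 1 embryo left out, beside 45, 21 and 171 genes over the whole table and 1 in edgeR without sex. In Het at S1 it was 1 with sex in either tool. With the embryo as a replicate block, 5 genes were called between stages and 0 in the interaction, and no call changed. With 1 embryo left out, *Mavs* in KO ran from -0.060 to 0.18 at S3 and from -0.42 to 0.10 at S1. In Het at S3, *Dhx58* ran from -0.22 to 0.995, *Rigi* from -0.42 to 0.57 and *Ifih1* from -0.043 to 0.39. In Het at S1, *Adar* ran from -0.0051 to 0.17, *Eif2ak2* from -0.79 to 0.12, *Rigi* from -0.63 to 0.60, *Dhx58* from -0.65 to 0.57, *Mavs* from -0.46 to 0.052 and *Cgas* from -0.18 to 0.46. *Eif2ak2* between stages ran from -0.64 to 0.34 (without WT embryo 1), and in the interaction *Cgas* ran from -0.31 to 1.06 and *Rigi* from -0.057 to 0.45. Without WT embryos 0 and 8, *Mavs* was 0.28 and *Eif2ak2* -0.33 in KO at S1, and in Het at S1 *Rigi* was -0.37, *Dhx58* -0.37, *Mavs* 0.25, *Cgas* -0.37 and *Sting1* -0.23. With sex, Het at S1 gave 0.23 for *Ifih1* (DESeq2 0.22) and 0.38 for *Eif2ak2* (DESeq2 0.37). With library totals, *Dhx58* was -0.0008 and *Adar* -0.0022 in Het at S1, and *Adar* was -0.13 between stages. Of 18 mean levels in WT, 6 moved by over 1 SD when given as CPM of the library total. The cause was not tested. Leaving out a KO or Het embryo leaves 1 library, assumed to vary like the others. The counts of *Sting1*, *Cgas* and *Zbp1* at S3 are too low for a test.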
